A study of Rattus norvegicus with 8 samples.

Results

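Heat shock proteins and their cochaperones were followed in whole lungs of newborn rats whose mothers differed in vitamin D supply. The genes were taken by name: a symbol beginning with Hspa, Hspb, Hspd, Hspe, Hsph, Hsp90, Dnaja, Dnajb, Dnajc or Hsf, or Bag1 to Bag5. The name rule gave 115 of the 22093 genes that the array annotation names with a single symbol, and where a gene had several rows the brightest one on average stood for it. Current RefSeq annotation types 84 of them as protein-coding and 31 as pseudogenes. A gene was tested if its mean log2 value reached 5.32, the percentile 30 of all gene means, which 99 genes did (71 protein-coding and 28 pseudogenes). The other 16 are Hspa1a, Hspa1l, Hspa2, Hspb3, Hspb7, Dnajb7, Dnajb8, Dnajc6, Dnajc5g, Dnajc17l1, Hsf3, Hsfy2, Hsf2bp, Dnaja1-ps4, Hsp90ab1-ps10 and Hspa6l-ps1.

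Molecular chaperones bind unfolded stretches of other proteins and let them fold, move or be degraded. HSP70 proteins do this in cycles of ATP hydrolysis, started by J-domain proteins (the Dnaj genes) and ended by nucleotide exchange factors such as the HSP110 and BAG proteins. HSP90 acts later on kinases and steroid receptors, small heat shock proteins hold unfolded proteins without using ATP, and the transcription factor HSF1 raises many of these genes during heat or oxidative stress. The lung meets a change in oxygen tension and mechanical stretch at birth, and its type 2 cells fold and secrete large amounts of surfactant protein.

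The 2 groups held 4 arrays of lung RNA each. Each array is called a lung here, though the sample titles do not say whether it holds 1 pup. Lungs titled control came from mothers on a purified diet with 1000 IU of vitamin D per kg, and lungs titled deficient from mothers on the same kind of diet with 0 IU added. All mothers were kept without ultraviolet light at the altitude of Denver, both diets held 0.5% calcium and 0.4% phosphorus, and deficient mothers were mated with vitamin D-replete males once serum 25-hydroxyvitamin D was below 10 ng/ml. The sources used here give neither strain nor litter, so each p-value reflects variation among these 8 samples, and the spread between litters could be larger. The pups are labelled day 0 and their harvest day of life 1.

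The direction of every difference below follows the titles, as titled control minus titled deficient on the log2 scale, since titles and the authors' table name the groups in opposite ways. All 8 columns of the authors' deposited table hold, over 2312 rows and to within 0.001, the values of the same-numbered lung of the opposite group. That table lists 8 of the chaperone genes, from a signed fold of -1.63 for Hsp90ab1-ps21 to 1.56 for Hspb6 in the authors' deposited table, and by its column names each lies the other way round.

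Other differences between the lungs ran alongside. Surfactant protein C, the marker of type 2 cells, measured 19.87 and 19.86 in the titled control and titled deficient groups, near the highest value of the table (19.93), where a difference may not show. Some other type 2 cell genes were higher in titled control, Napsa by 1.00, Nkx2-1 by 0.85, Sftpd by 0.69, Abca3 by 0.64 and Sftpb by 0.38 (limma adjusted p from 0.000826 to 0.00715). Sftpa1 (0.37, adjusted p = 0.0538) and Lamp3 (0.11, adjusted p = 0.499) did not pass. The summed signal of 18 neutrophil genes ran from 14.27 to 15.29 in titled control and from 10.76 to 11.29 in titled deficient lungs, with 13 of 15 tested genes called. The 17 immediate early genes ran from 16.09 to 17.69 against 14.19 to 14.62, with 15 of 15 called. The 14 ciliated cell genes ran from 13.74 to 14.06 against 13.03 to 13.29. Of 19 lung cell genes 8 passed, all higher in titled control (21.34 to 21.43 against 21.14 to 21.23), and of 9 erythroid genes 0 passed in the limma fit, with 0 at an unadjusted p under 0.05. Ddx3y, on the Y chromosome, measured 13.45, 13.43, 8.71 and 7.40 in titled control 1 to 4 and 5.71 to 5.90 in the titled deficient lungs. Eif2s3y (11.82, 11.68, 7.54 and 6.64 against 5.76 to 5.99) and Kdm5d did not overlap between groups either. Uty did, but its row ID names the X chromosome, unlike those of the other 3. The signal of Ddx3y, Eif2s3y and Kdm5d ran with the titled group and cannot be told apart from it here. The part of all these markers in the differences of the chaperone genes was not tested. In whole lung, fewer cells of a type and less RNA per cell cannot be told apart.

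Of the 99 chaperone genes tested, 21 passed an adjusted p of 0.05 in the limma fit of all 15465 genes, which is 21.2% of them against 21.9% of all genes (13.7% higher in titled control and 8.24% higher in titled deficient). The share is near the background and says nothing particular about the family. By direction 10 were higher in titled control and 11 in titled deficient. All 10 of the first are protein-coding genes (Hspb6, Bag4, Dnajb4, Hspa12a, Hsph1, Dnajb13, Hsf1, Dnaja4, Dnajb2 and Dnajc4). The second are 3 protein-coding genes (Dnajb5, Dnajc2 and Dnajc17) and 8 pseudogene rows. The protein-coding genes passed in 13 of 71 cases (18.3%), against 22.1% of all protein-coding genes, and their median difference was 0.00. Differences were small, between -0.71 and 0.66 over the tested chaperone genes, that is at most 1.63-fold. The groups did not overlap for 23 of the 99, against 28.0% of all genes.

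Scaling changed how many genes lay in each direction. A second quantile normalization left 5 chaperone genes higher in titled control and 18 higher in titled deficient, with 7 of the latter protein-coding. Centring each array on its median gave 5 and 23, with 9 protein-coding, and moved the median difference of all genes from 0.018 to -0.09. Of all genes called, 62.4% were higher in titled control as deposited, 46.4% after the quantile step, 55.4% after cyclic loess and 32.9% after centring.

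**Figure D1:**
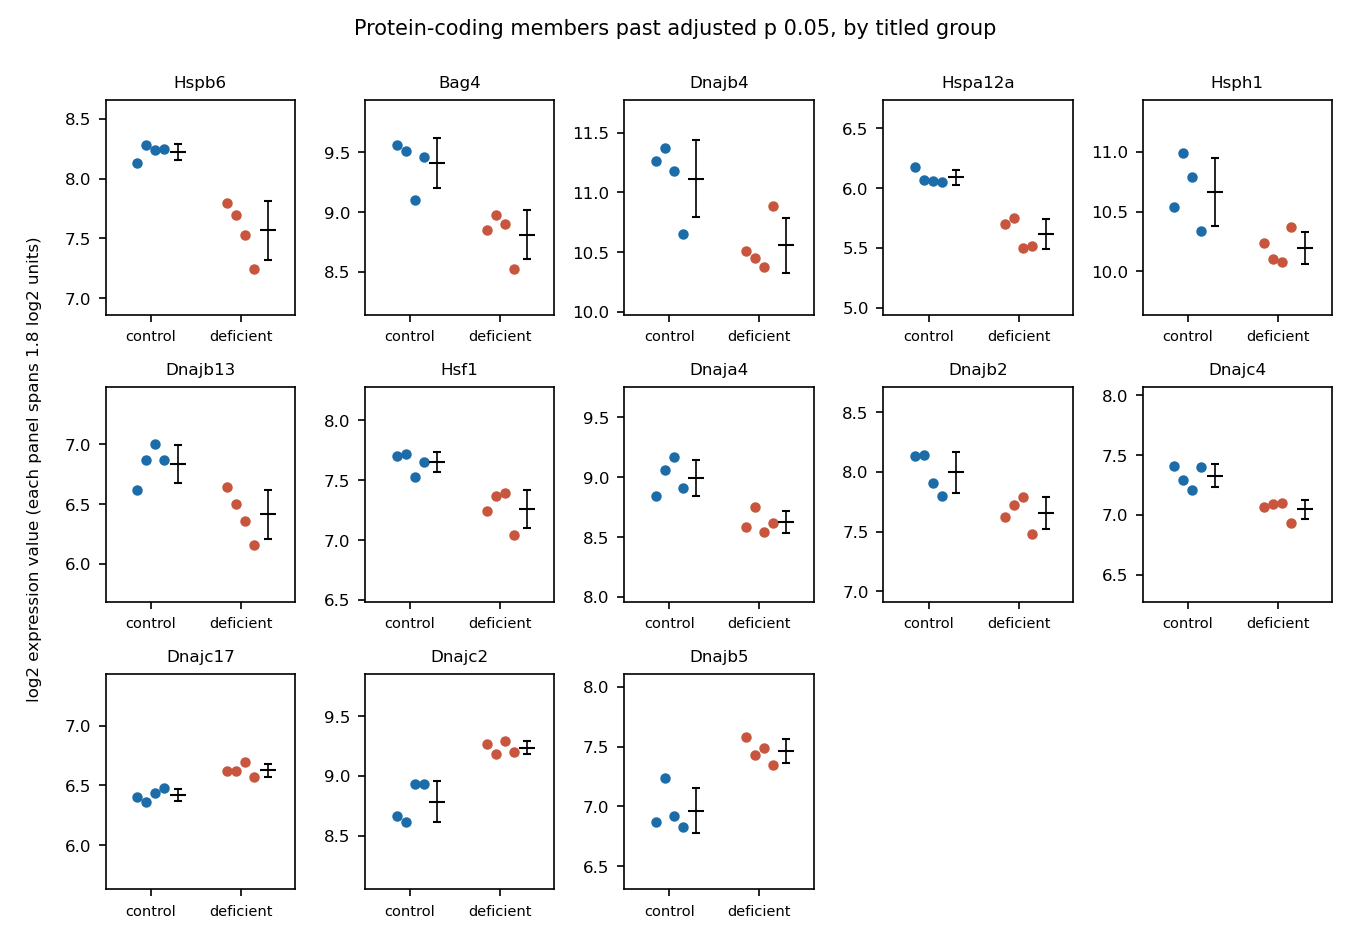
Log2 expression values (vertical axis, each panel spanning the same number of units) of the 13 protein-coding chaperone genes past the threshold, with 1 point per lung in the order of replicate numbers and, beside them, the group mean with a bar of 1 SD, by titled group. Points of the groups are apart in 10 panels and overlap for Dnajb4, Dnajb13 and Hsph1.

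Heat shock factor binds a promoter element made of alternating GAA and TTC units. A run of 3 units (GAA, any 2 bases, TTC, any 2 bases and GAA, or its complement TTC, any 2 bases, GAA, any 2 bases and TTC) was looked for on both strands in RefSeq windows from 250 bases before to 50 after each gene start (build GRCr8). Of 33469 such windows 267 (0.798%) hold it, and among the 67 chaperone genes with a window 4 do: Hsph1, Hspa8, Hspd1 and Hspe1. Hsph1 is the one of these that passed the test. Its window lies at chr12:10427118-10427417 on the plus strand, and the element, in capitals, begins 36 bases before the start.
Hsph1: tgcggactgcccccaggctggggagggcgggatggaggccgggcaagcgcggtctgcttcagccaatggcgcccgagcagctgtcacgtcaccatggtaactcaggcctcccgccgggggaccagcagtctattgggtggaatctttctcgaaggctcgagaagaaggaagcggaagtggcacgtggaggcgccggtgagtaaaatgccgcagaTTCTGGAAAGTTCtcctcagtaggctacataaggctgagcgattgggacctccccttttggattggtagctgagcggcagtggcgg
For contrast, chosen after the values were seen, the window of Hspa8 (chr8:50080264-50080563, plus strand) holds the element at 2 places, 213 and 55 bases before the start, and Hspa8 did not pass.
Hspa8: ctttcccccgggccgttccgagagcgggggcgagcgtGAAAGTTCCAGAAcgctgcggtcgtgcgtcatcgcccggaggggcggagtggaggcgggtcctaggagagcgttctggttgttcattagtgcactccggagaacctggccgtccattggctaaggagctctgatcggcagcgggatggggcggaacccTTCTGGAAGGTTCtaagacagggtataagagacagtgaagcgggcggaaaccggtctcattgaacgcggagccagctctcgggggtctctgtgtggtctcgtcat
The mitochondrial partners Hspe1 and Hspd1 start close together on opposite strands and their windows overlap, so the run in the window of Hspe1 (chr9:64084077-64084376, plus strand), which matches in 2 overlapping frames, is also that of Hspd1. Neither passed.
Hspe1: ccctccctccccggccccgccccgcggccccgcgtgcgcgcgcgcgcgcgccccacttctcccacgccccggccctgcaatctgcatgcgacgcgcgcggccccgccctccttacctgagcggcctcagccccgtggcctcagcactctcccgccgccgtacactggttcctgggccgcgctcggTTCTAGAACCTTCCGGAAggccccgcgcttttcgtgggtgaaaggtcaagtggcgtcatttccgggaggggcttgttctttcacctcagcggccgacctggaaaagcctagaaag
A match describes letters in the window and is not a binding site, and a window with no match says only that these letters are not in it.

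Of 11 cytosolic and mitochondrial genes listed as stress-inducible, 10 were tested, 2 passed (Hsph1 and Dnaja4, both higher in titled control; 20.0%, near the 21.9% of all genes), and 5 had an unadjusted p under 0.05. The median difference over the 10 was 0.23, against 0.02 over all genes, and 9 of the 10 were positive, against 8169 of all 15465. Hspd1, Hsp90aa1 and Dnajb1 were only just positive, at 0.01, 0.03 and 0.07. Dnajb1 became negative after quantile normalization (-0.03) or centring (-0.04). Hsp90aa1 became negative after centring (-0.08) and stayed just positive after quantile normalization (0.01). The count of 9 and the median of 0.23 hold for the values as deposited, and the lean is smaller where these genes turn negative. The list includes Hspa8, described below as constitutive, and the lean of the set has no test. Hsf1, the main heat shock transcription factor, measured 7.70, 7.72, 7.53 and 7.65 in titled control and 7.24, 7.37, 7.39 and 7.04 in titled deficient lungs. The groups did not overlap, and Hsf1 was 1.31-fold higher in titled control (0.39 ± 0.10 SE, limma adjusted p = 0.0196, n = 4 per group). It passed with any 1 lung left out, and not with control 1 and 2 left out together (0.33, adjusted p = 0.0998). Hsf2, a factor active in development, differed by -0.06 (95% interval -0.32 to 0.20, adjusted p = 0.747).

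Hsph1 encodes HSP105, which acts as an exchange factor for HSP70. It measured 10.54, 10.99, 10.79 and 10.34 in titled control and 10.24, 10.10, 10.08 and 10.37 in titled deficient lungs. Control 4 lay just below deficient 4, so the groups overlapped. Hsph1 was 1.38-fold higher in titled control (0.47 ± 0.14 SE, limma adjusted p = 0.0443). The call was lost without control 1, 2 or 3 or deficient 1, 2 or 3, where adjusted p reached 0.107, after quantile normalization, cyclic loess or centring, and with no level filter. Leaving out control 1 and 2 together also lost it. The other HSP110 genes overlapped between groups. Hspa4 differed by -0.15 (95% interval -0.46 to 0.17) and Hspa4l by 0.26 (95% interval -0.21 to 0.73).

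Among HSP70 genes 1 of 7 tested passed (14.3%, against 21.9% of all genes). Hspa12a, an atypical and distant HSP70 relative, measured 6.18, 6.07, 6.06 and 6.05 in titled control and 5.70, 5.75, 5.50 and 5.52 in titled deficient lungs. Every titled control lung was above every titled deficient one. Its difference of 0.48 ± 0.07 SE (1.39-fold, limma adjusted p = 0.00318) passed in every alternative in which the gene was tested. Hspa8, the constitutive cytosolic HSP70, measured 18.74, 18.93, 18.85 and 18.76 against 18.77, 18.72, 18.45 and 18.35. Only deficient 1 reached into the titled control range, and the difference of 0.25 did not pass (95% interval 0.00 to 0.50, adjusted p = 0.129). These values lie near the highest in the whole table, 19.93, and a second Hspa8 row, at a mean of 11.70 in titled control and 11.88 in titled deficient, differed by -0.18. The row IDs place neither on the chromosome that RefSeq gives for Hspa8, unlike the 117 other rows of the family.

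Hspa1a, the most heat-inducible HSP70 gene, was below the level filter on average and has no test. Its values were 5.34, 5.61, 5.0 and 5.07 in titled control and 4.87, 4.76, 5.08 and 4.80 in titled deficient lungs, against 3.71 to 3.92 for the array means of background probes. Control 1 and 2 were the highest, and controls 3 and 4 lay within the titled deficient range. Its second row read 5.27, 5.55, 4.84 and 4.89 against 4.70, 4.70, 4.83 and 4.52, with no overlap. Hspa1l and Hspa2, both known mainly from testis, also lay below the filter, at 4.41 to 4.63 and 3.84 to 4.19 over the 8 lungs. Hspa12b, expressed in endothelium, differed by -0.11 (adjusted p = 0.596), and Hspa14, the HSP70 of a ribosome-bound complex, by 0.00 (95% interval -0.21 to 0.22).

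The 3 HSP90 genes did not pass in either direction, while 21.9% of all genes passed. Hsp90aa1, the inducible cytosolic form, measured 15.12, 15.58, 15.81 and 15.71 in titled control and 15.81, 15.51, 15.28 and 15.51 in titled deficient lungs. The groups overlapped almost fully (0.03, 95% interval -0.34 to 0.40), and a second row of the gene differed by -0.01. The constitutive form Hsp90ab1 measured 14.13, 14.18, 14.31 and 14.20 against 14.43, 14.27, 14.22 and 14.05, also overlapping (-0.04, 95% interval -0.27 to 0.19). The mitochondrial chaperonin Hspd1 differed by 0.01 (95% interval -0.24 to 0.27) and its lid Hspe1 by -0.19 (95% interval -0.47 to 0.10).

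**Figure D2:**
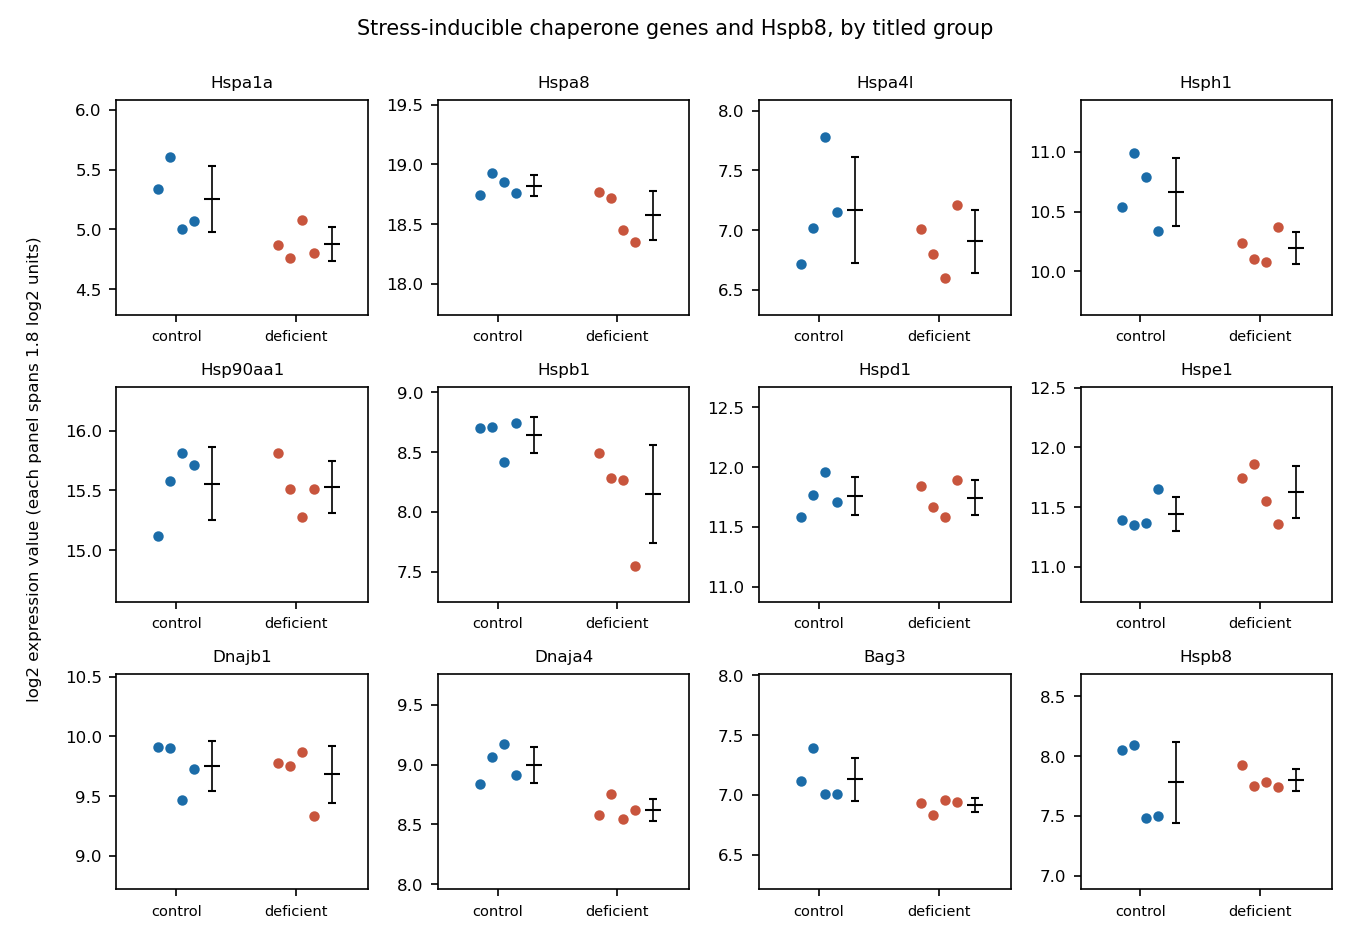
Log2 expression values (vertical axis, each panel spanning the same number of units) of stress-inducible chaperone genes and Hspb8, with 1 point per lung in the order of replicate numbers and, beside them, the group mean with a bar of 1 SD, by titled group. Hsph1 and Dnaja4 passed the test, and the titled control values of Hspb8 split into 8.05 and 8.09 for lungs 1 and 2 and 7.48 and 7.50 for lungs 3 and 4.

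Among the small heat shock proteins 1 of 5 tested passed (20.0%, near the 21.9% of all genes). Hspb6, also known as HSP20 and abundant in smooth and cardiac muscle, had the largest difference among the protein-coding chaperone genes. It measured 8.13, 8.28, 8.24 and 8.25 in titled control and 7.80, 7.70, 7.53 and 7.24 in titled deficient lungs, with no overlap. Hspb6 was 1.58-fold higher in titled control (0.66 ± 0.12 SE, limma adjusted p = 0.00568) and passed in all 20 alternatives. The summed signal of 13 muscle genes, mostly of striated and cardiac muscle, lay at 11.81 to 12.16 in titled control and 11.81 to 12.27 in titled deficient lungs. Of the 12 muscle genes tested, 2 passed, both higher in titled deficient. The smooth muscle actin Acta2 differed by -0.11 (adjusted p = 0.626) and desmin (Des) by 0.24 (adjusted p = 0.361). The part of muscle content in the Hspb6 difference was not tested.

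Hspb1, the stress-inducible HSP27, measured 8.70, 8.71, 8.42 and 8.74 in titled control and 8.49, 8.28, 8.27 and 7.55 in titled deficient lungs. Control 3 lay below deficient 1, and the difference of 0.50 ± 0.19 SE did not pass (limma adjusted p = 0.0812). Hspb8, which works with Bag3 in selective autophagy, had nearly equal group means (7.78 and 7.80) but split the titled control lungs. Controls 1 and 2 measured 8.05 and 8.09 and controls 3 and 4 measured 7.48 and 7.50, while the titled deficient lungs lay between, at 7.93, 7.75, 7.78 and 7.74. The same pairs of control lungs are apart in Ddx3y and in the immediate early genes, whose summed signal was 16.20, 16.09, 17.69 and 17.35 in control 1 to 4. Their part in the split was not tested. Hspb2 differed by 0.07 and Hspb9 by -0.11, neither passing, and Hspb3 and Hspb7 were below the filter.

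Of the 14 tested J-domain genes of the A and B classes 5 passed, 4 of them higher in titled control. The share was 33.3% in class A (1 of 3 genes) and 36.4% in class B (4 of 11), against 21.9% of all genes. In class C, given below, it was 12.0%. No test compared the classes. Dnaja1 is not in class A here, since its row carries a second symbol and the name rule took rows with 1. That row read 9.98, 10.15, 10.04 and 9.98 in titled control and 10.02, 9.92, 9.83 and 9.99 in titled deficient lungs. Dnajb4, a cytosolic partner of HSP70, measured 11.26, 11.37, 11.18 and 10.65 against 10.51, 10.45, 10.38 and 10.89. Deficient 4 exceeded control 4, so the groups overlapped. The difference of 0.56 ± 0.17 SE (1.47-fold, limma adjusted p = 0.0452) was lost without control 1, 2 or 3 or deficient 1, 2 or 3, with adjusted p up to 0.108, and after quantile normalization or centring. It was also lost with no level filter and with control 1 and 2 left out together (0.35, adjusted p = 0.252). Dnaja4, a stress-inducible class A member, measured 8.84, 9.06, 9.17 and 8.91 against 8.58, 8.75, 8.54 and 8.62, with no overlap. Its difference of 0.37 ± 0.10 SE (adjusted p = 0.0245) was lost without control 2 or 3 or deficient 1 or 3, with adjusted p up to 0.0653, and after quantile normalization or centring. Leaving out control 3 and 4 together also lost the Dnaja4 call (0.33, adjusted p = 0.0772).

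Dnajb13 is a component of radial spokes in cilia and sperm tails. It measured 6.62, 6.87, 7.0 and 6.87 in titled control and 6.64, 6.50, 6.36 and 6.16 in titled deficient lungs, and control 1 lay just below deficient 1. Dnajb13 was 1.34-fold higher in titled control (0.43 ± 0.12 SE, limma adjusted p = 0.0289), and so were 10 of 13 tested ciliated cell genes (median difference 0.62), including the ciliogenesis factor Foxj1 at 0.84. Their part in the difference was not tested. The Dnajb13 call was lost without any of control 2, 3 and 4 and deficient 2, 3 and 4, with adjusted p up to 0.0705. It was also lost with control 3 and 4 left out together (0.33, adjusted p = 0.137).

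Dnajb2, which carries ubiquitin-binding motifs and hands clients to the proteasome, measured 8.13, 8.14, 7.91 and 7.80 against 7.62, 7.72, 7.79 and 7.48. The lowest titled control lung stood only just above the highest titled deficient one. The difference of 0.34 ± 0.11 SE (limma adjusted p = 0.0466) was lost without any 1 lung other than control 4, with adjusted p up to 0.108, and after each of the 3 rescalings. It was also lost with no level filter and with control 1 and 2 left out together (0.20, adjusted p = 0.247). Dnajb5 went the other way. It measured 6.87, 7.24, 6.92 and 6.83 in titled control and 7.58, 7.43, 7.49 and 7.35 in titled deficient lungs, with no overlap. Dnajb5 was 1.41-fold higher in titled deficient (-0.50 ± 0.10 SE, adjusted p = 0.00988) and passed with any 1 lung left out, but not with control 3 and 4 left out together (-0.41, adjusted p = 0.0551). Dnajb1, the canonical HSP40, differed by 0.07 (95% interval -0.25 to 0.39), and Dnajb6, known for holding back protein aggregation, by -0.02 (adjusted p = 0.89).

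The class C J-domain proteins are a mixed group tied to particular sites in the cell, and 3 of 25 tested passed (12.0%, against 21.9% of all genes). Dnajc2, the J protein that docks HSP70 at the ribosome, measured 8.66, 8.61, 8.93 and 8.93 in titled control and 9.27, 9.18, 9.29 and 9.20 in titled deficient lungs. All titled deficient lungs were higher, by 1.37-fold (-0.45 ± 0.10 SE, limma adjusted p = 0.0129), and the call held with any 1 lung left out, but not with control 1 and 2 left out together (-0.30, adjusted p = 0.0643). Its HSP70 partner at the ribosome is Hspa14, given above at 0.00. Dnajc17, a nuclear member, measured 6.40, 6.36, 6.44 and 6.48 against 6.62, 6.62, 6.70 and 6.57. Its groups did not overlap, but the small difference of -0.21 ± 0.06 SE (adjusted p = 0.0447) was lost without any 1 lung other than deficient 4, with adjusted p up to 0.109. Leaving out control 1 and 2 together, or control 3 and 4 together, also lost the Dnajc17 call. So did a fit with no level filter and a fit with no variance trend. Dnajc4 measured 7.41, 7.29, 7.21 and 7.40 against 7.07, 7.09, 7.10 and 6.93, all titled control lungs higher. Its difference of 0.28 ± 0.08 SE (adjusted p = 0.0333) was lost without any 1 lung other than control 3, with adjusted p up to 0.0819, and after quantile normalization or centring. The Dnajc4 call was also lost with either of these control pairs left out.

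Dnajc9 and Dnajc7, named after their values were seen, came close in the other direction. Dnajc9, a histone cochaperone, measured 6.44, 6.42, 6.52 and 6.47 against 6.60, 6.79, 6.61 and 6.70, with no overlap, and did not pass (-0.22, limma adjusted p = 0.0514). Dnajc7, an HSP70 and HSP90 cochaperone with tetratricopeptide repeats, measured 9.60, 9.68, 9.89 and 9.75 against 9.91, 9.98, 10.00 and 10.16. Here too every titled deficient lung was higher without passing (-0.28, adjusted p = 0.0617). Others did not come close. Dnajc21, a ribosome biogenesis factor, differed by -0.32 (adjusted p = 0.249), with deficient 4 at 11.08 and the other titled deficient lungs at 10.43 to 10.52. Dnajc5, the synaptic vesicle cysteine string protein, differed by -0.07 (adjusted p = 0.622).

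**Figure D3:**
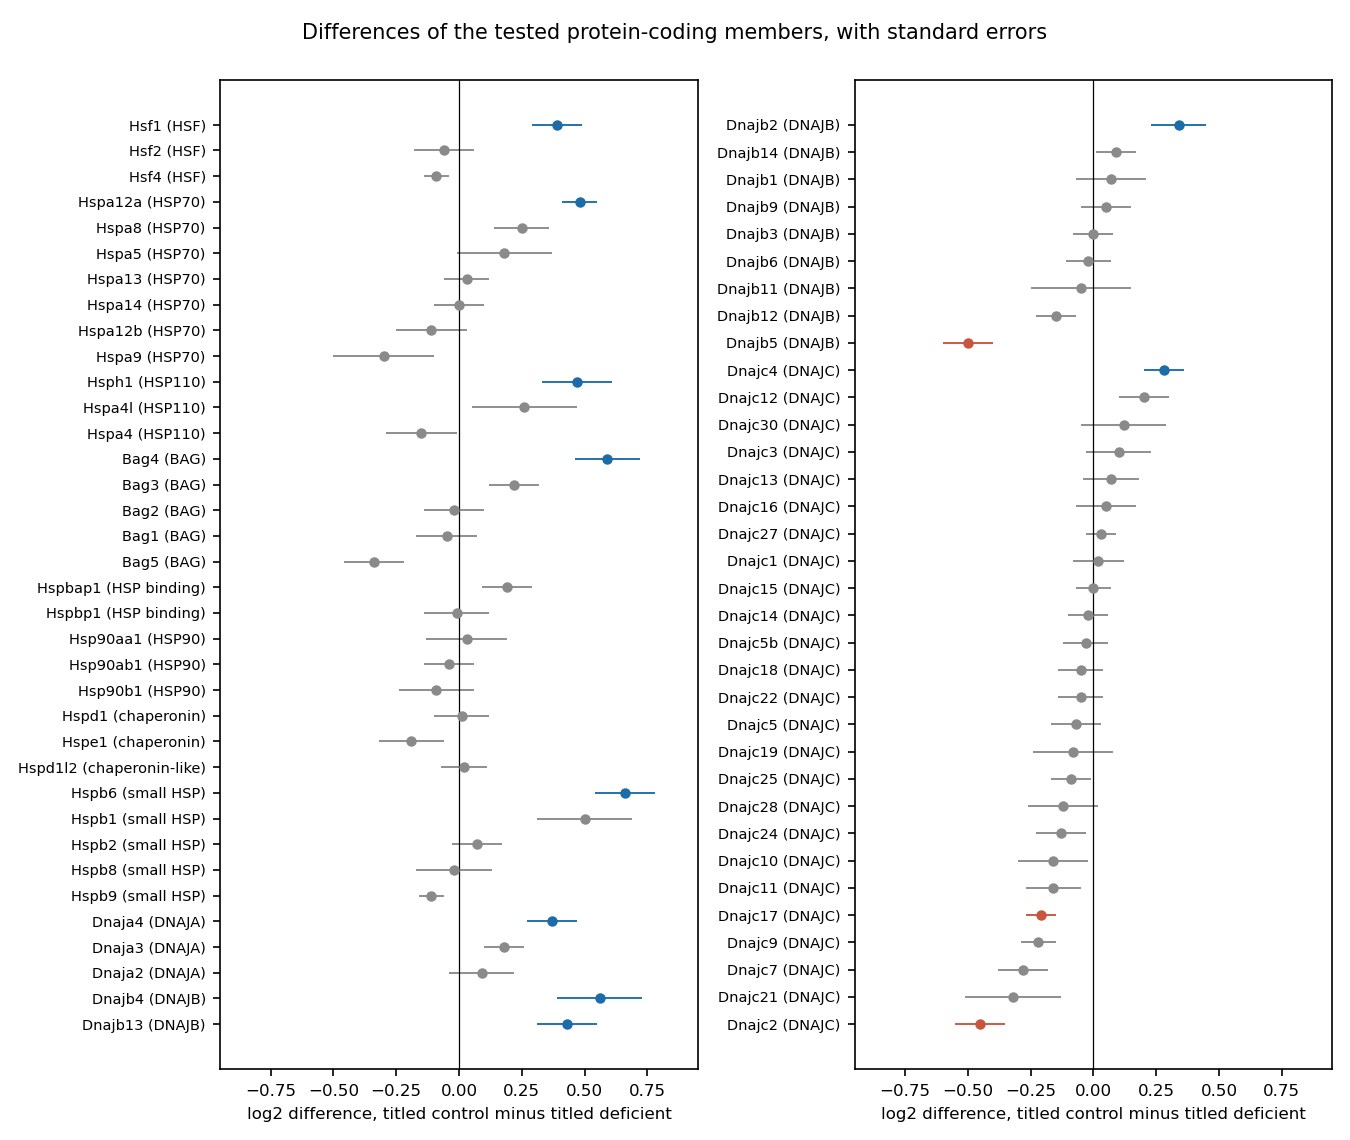
Log2 differences (horizontal axis, titled control minus titled deficient) of the tested protein-coding chaperone genes other than Dnajb6-ps4 (-0.15), with bars of 1 moderated standard error, in blue where the gene passed and was higher in titled control and in red where it was higher in titled deficient. The differences run from -0.50 for Dnajb5 to 0.66 for Hspb6 and their median is 0.00.

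BAG proteins release HSP70 from its clients, and 1 of 5 passed (20.0%, near the 21.9% of all genes). Bag4, also called silencer of death domains, measured 9.56, 9.51, 9.10 and 9.46 in titled control and 8.85, 8.98, 8.90 and 8.52 in titled deficient lungs. The groups did not overlap and Bag4 was 1.51-fold higher in titled control (0.59 ± 0.13 SE, limma adjusted p = 0.0143), also with any 1 lung left out, though not with control 1 and 2 left out together (adjusted p = 0.087). Bag3, the stress-inducible partner of small heat shock proteins, measured 7.12, 7.39, 7.01 and 7.01 against 6.93, 6.83, 6.96 and 6.94. All titled control lungs were higher, but the difference of 0.22 did not pass (adjusted p = 0.131). Bag5 measured 9.16, 9.54, 9.59 and 9.29 against 9.76, 9.57, 9.69 and 9.92, overlapping by 1 lung (-0.34, adjusted p = 0.0717). It passed in that direction after quantile normalization, cyclic loess and centring, with adjusted p of 0.0292, 0.0442 and 0.0292, and its second row differed by -0.15. Bag1 and Bag2 differed by -0.05 and -0.02.

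Chaperones of the endoplasmic reticulum varied among the lungs of a group. None of the 8 listed passed in the limma fit, against 21.9% of all genes, and none had an unadjusted p under 0.05. Hspa5, the reticulum HSP70 known as BiP, measured 13.16, 13.76, 13.95 and 13.83 in titled control and 13.77, 13.64, 13.31 and 13.28 in titled deficient lungs. Hsp90b1, its HSP90 counterpart, measured 15.01, 15.26, 15.62 and 15.42 against 15.56, 15.52, 15.14 and 15.45. For both genes control 1 was the lowest of all 8 lungs and control 3 the highest. Dnajb11, a J-domain partner of BiP, spanned 8.39 in control 1 to 9.49 in control 3, while the titled deficient lungs lay between 8.85 and 9.13. Control 1 was the lowest titled control lung for 7 of the 8 genes and control 3 the highest for 7, while over all genes tested they held these places for 27.4% and 29.5%. Deficient 3 was the lowest titled deficient lung for 7 of the 8, against 26.2% of all genes. The same lungs held these places often among other chaperone genes: control 1 was the lowest titled control lung for 6 of 10 mitochondrial, 5 of 10 stress-inducible and 31 of all 71 tested protein-coding genes (43.7%), and control 3 the highest for 27 of the 71 (38.0%). The pattern was noticed in the data and has no test.

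The endoplasmic reticulum stress element, spelled CCAAT, any 9 bases and CCACG and searched on both strands, is in 22 of the 33469 windows (0.0657%). Among the 67 chaperone windows 3 hold it, those of Hspa5, Hsp90b1 and Dnajc3, which encodes an inhibitor of a stress kinase. The window of Hspa5 (chr3:38452766-38453065, plus strand) is printed because this gene is the textbook reporter of the reticulum stress response, a choice made after the values were seen. The element, in capitals, begins 43 bases before the start.
Hspa5: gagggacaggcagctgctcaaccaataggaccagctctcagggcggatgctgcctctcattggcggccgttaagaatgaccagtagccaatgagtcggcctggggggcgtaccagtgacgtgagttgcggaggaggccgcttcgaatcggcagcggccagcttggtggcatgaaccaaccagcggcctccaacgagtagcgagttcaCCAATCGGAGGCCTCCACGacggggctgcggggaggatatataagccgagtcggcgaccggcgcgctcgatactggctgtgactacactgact
Hspa5 differed by 0.18 (95% interval -0.23 to 0.59), Hsp90b1 by -0.09 (95% interval -0.42 to 0.23) and Dnajc3 by 0.10 (adjusted p = 0.581).

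In mitochondria 1 of 10 listed chaperone genes passed (10.0%, against 21.9% of all genes), Dnajc4, given above. Hspa9, the mitochondrial HSP70 mortalin, measured 11.78, 12.18, 12.68 and 12.31 against 12.52, 12.51, 12.24 and 12.89, with the groups overlapping (-0.30, 95% interval -0.74 to 0.13). Dnaja3, its J-domain partner in the matrix, differed by 0.18 (adjusted p = 0.15). The binding partners Hspbp1, an exchange factor of HSP70, and Hspbap1, which binds HSP27, differed by -0.01 and 0.19, and neither passed.

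Pseudogene rows made up most of the calls in the other direction. Of 28 tested, 8 passed, all higher in titled deficient (28.6%), against 18.3% higher in titled deficient and 2.89% higher in titled control among all 623 pseudogenes tested, which contain these. Their median difference was -0.29 against -0.16 for all pseudogenes, and 25 of the 28 were negative against 491 of 623. No fit was made to set them apart from other pseudogenes. The count higher in titled deficient was 8 to 14 under the 3 rescalings. Such copies can resemble their parent genes closely, so signal could be shared with the parent or among copies, and whether a row measures its own transcript was not tested.

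Copies of Hsp90ab1 gave 5 of the 8 calls. All 8 tested had negative differences, from -0.71 to -0.26, while Hsp90ab1 itself differed by -0.04. Hsp90ab1-ps21 measured 12.12, 12.38, 11.93 and 12.02 in titled control and 12.90, 13.03, 12.66 and 12.69 in titled deficient lungs. It was 1.63-fold higher in titled deficient (-0.71 ± 0.13 SE, limma adjusted p = 0.00578), with no overlap. Hsp90ab1-ps13, typed as a transcribed pseudogene, measured 9.30, 9.25, 9.29 and 9.27 against 9.91, 9.80, 9.66 and 9.72. The titled control lungs lay within a narrow band and well apart from the others (-0.49, adjusted p = 0.00437). Hsp90ab1-ps2 and Hsp90ab1-ps8 also differed by -0.49 each, and these 4 passed in every alternative in which they were tested. Hsp90ab1-ps2 lay near the level filter, with a mean of 5.29 in titled control, just below it, and 5.77 in titled deficient. Hsp90ab1-ps4 (-0.26, adjusted p = 0.0411) was lost without any 1 lung other than deficient 2 or 4, with adjusted p up to 0.105. It was also lost with array weights and with control 1 and 2, or control 3 and 4, left out together.

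The remaining copies followed by parent. All 6 tested copies of Hsp90aa1 were negative and 1 passed: Hsp90aa1-ps15 measured 8.08, 8.50, 8.54 and 8.27 against 9.03, 8.78, 8.66 and 9.22, with no overlap (-0.57, limma adjusted p = 0.0227). That call was lost without control 1 or 4 or deficient 1, with adjusted p up to 0.0595. It was also lost with control 1 and 2 left out together. Of 9 copies of Hspa8, 6 were negative and 1 passed, Hspa8-ps17, at 7.84, 7.85, 7.77 and 7.56 against 8.17, 8.22, 8.07 and 8.10 (-0.39, adjusted p = 0.0151), a call lost with control 3 and 4 left out together (adjusted p = 0.0598). The 3 positive ones, Hspa8-ps23, Hspa8-ps12 and Hspa8-ps25, differed by 0.03, 0.12 and 0.14, and did not pass. All 3 copies of Hspd1 were negative and 1 passed, Hspd1-ps5, at 6.06, 6.13, 6.04 and 5.85 against 6.17, 6.40, 6.31 and 6.60 (-0.35, adjusted p = 0.0345). This call was lost without control 1, 3 or 4 or deficient 2, 3 or 4, with adjusted p up to 0.0845. Leaving out control 1 and 2 together, or control 3 and 4 together, also lost it.

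**Figure D4:**
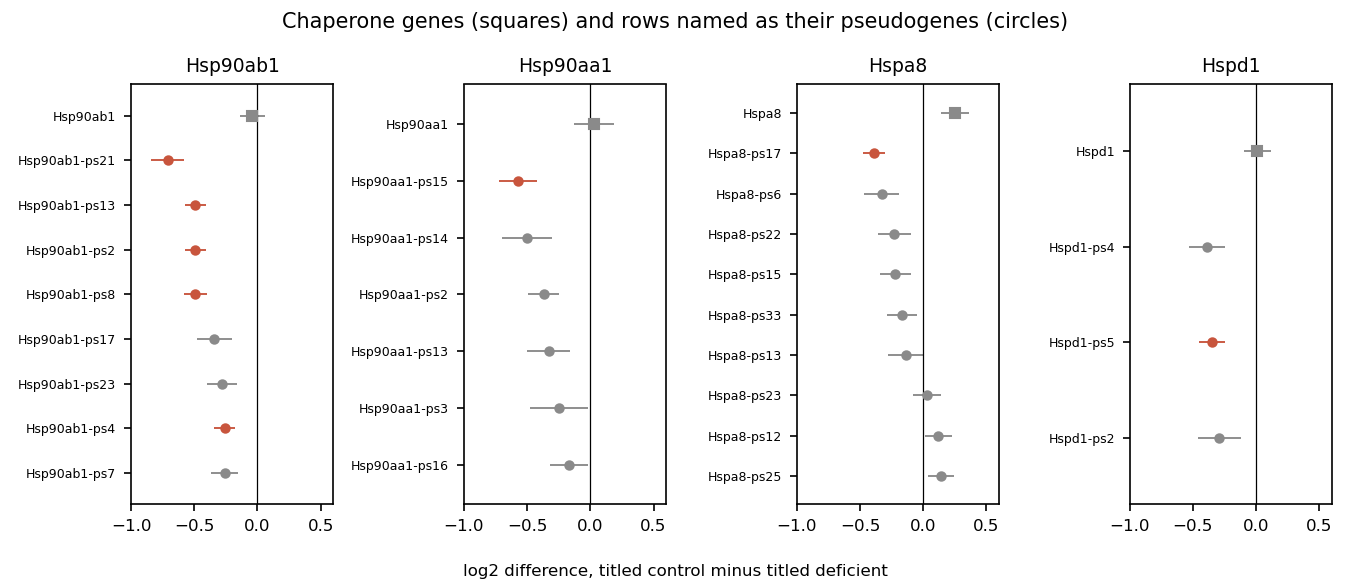
Log2 differences (horizontal axis, titled control minus titled deficient) of 4 chaperone genes (squares) and the tested pseudogene rows named after each (circles), with bars of 1 moderated standard error and in red those past the threshold and higher in titled deficient. The parent genes Hsp90ab1, Hsp90aa1, Hspa8 and Hspd1 lie at -0.04, 0.03, 0.25 and 0.01, and all 8 copies of Hsp90ab1 lie between -0.71 and -0.26.

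Chaperone genes outside the named family came from lists of cochaperones, folding enzymes and heat shock factor targets. Of 90 tested, 8 passed (8.89%, against 21.9% of all genes), 5 higher in titled control and 3 higher in titled deficient. Among 25 HSP90 cochaperones 2 passed, in opposite directions. Unc45a, a myosin chaperone, differed by 0.51 (limma adjusted p = 0.0178), and Itgb1bp2, the muscle protein melusin, by -0.42 (adjusted p = 0.0131). The titled control mean of Itgb1bp2, 5.3, lay just below the level filter, and its titled deficient mean was 5.72. None of 16 subunits and partners of the cytosolic chaperonin and prefoldin passed in the limma fit, and 1 had an unadjusted p under 0.05. Among 13 HSP70 regulators, Grpel2, the exchange factor of mitochondrial HSP70, measured 7.77, 7.81, 7.66 and 7.71 against 8.09, 8.34, 8.06 and 8.24, higher in every titled deficient lung (-0.44, adjusted p = 0.00811). Its paralogue Grpel1, named after its values were seen, differed by -0.13 (adjusted p = 0.238).

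In the endoplasmic reticulum both disulfide oxidases passed, 2 of 21 listed genes (9.52%, against 21.9% of all genes). Ero1a, also a hypoxia-responsive gene, measured 11.54, 11.98, 12.11 and 11.64 in titled control and 10.67, 10.84, 10.63 and 10.65 in titled deficient lungs. The groups were far apart, 2.18-fold (1.12 ± 0.14 SE, limma adjusted p = 0.000967). Ero1b differed by 0.47 (adjusted p = 0.0329). Of 19 genes listed as heat shock factor targets 2 passed (10.5%), and whether the factor controls them was not tested. They were the clock gene Per1, which differed by 0.82 (adjusted p = 0.00332), and the cold-inducible RNA-binding protein Rbm3, by -0.67 (adjusted p = 0.0311). In mitochondria Htra2, a quality-control protease, differed by 0.43 (adjusted p = 0.0469). Herpud1, a reticulum stress-induced degradation factor, just missed (-0.33, adjusted p = 0.0501), and so did P4ha2, a collagen prolyl hydroxylase subunit (0.45, adjusted p = 0.0625), and the HSP90 cochaperone Cdc37l1 (-0.35, adjusted p = 0.0666). After centring, 3 of these outside genes were higher in titled control and 14 in titled deficient.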

How the data were processed

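RNA from 8 newborn rat lung samples was measured on 1-colour Affymetrix arrays. Per the labels and the submitters' processing notes, the authors used Affymetrix Expression Console (SST-RMA at gene level) to make the deposited log2 expression values. RMA normalizes between arrays and summarises probes, which makes arrays alike. The sources used here do not give its version, library file or build. The authors' deposited table also holds a signed fold score. Array medians over named genes ran from 6.599 to 6.734. The number of arrays limits the precision.

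Of 68842 transcript clusters, 23446 carry 1 symbol, and 1738 control rows were left out. The 15465 genes at or above the level filter entered a limma fit (version 3.58.1, R 4.3.3) of the 2 groups without covariates, using lmFit and trended eBayes. Tests were 2-sided, and Benjamini-Hochberg adjustment covered every gene tested. Intervals are 95% from the moderated standard error. The steps were tested on simulated data. Alternatives changed the filter, row choice, scaling, variance model, array weights, replicate block and arrays used.

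Members and lists were chosen with earlier results of these data known. Named genes are those with the largest differences among the called (15 each way), a fixed set of chaperones, genes with 2 rows, genes with an array far from its group, and the 3 smallest p-values of each outside list. Promoter windows are RefSeq's, build GRCr8, and all 115 genes matched RefSeq by gene ID.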

Additional observations from a re-analysis of the deposited data

Results flagged for a closer look

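An array was taken as far from its group when its gap to the nearest other value exceeded the share of the group's range that Dixon's test allows at 95% for 4 values. Chance gives about 1 in 20 groups, and 17 of the 230 groups of all 115 chaperone genes (7.39%) met it. Titled deficient 4 accounted for 9 of them. It was the highest of its group for Dnajb6 at 8.67 (the others 8.39 to 8.42), Dnajb6-ps10 at 9.94, Dnajb6-ps4 at 10.11, Dnajc21 at 11.08, Dnajc24 at 7.84 and Dnajc28 at 6.53. It was the lowest for Dnajc16 at 7.47, Dnajc5 at 10.34 and Hsp90ab1-ps23 at 7.42. The 3 Dnajb6 rows are named as copies of one gene, and whether they share signal was not tested. The same array was the highest of its group for 30.8% and the lowest for 41.6% of all genes tested.

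The other 8 were spread over 6 arrays. Titled control 1 was the highest of its group for Hsp90ab1-ps23 at 7.66 and for Hspa12a at 6.18. Titled control 3 was the lowest for Dnajc14 at 9.68 and for Hspb1 at 8.42, and titled control 4 the highest for Hspe1 at 11.65. Titled deficient 3 was the lowest for Hsp90aa1-ps13 at 11.01. Hspa1l, below the level filter, had titled control 2 highest at 4.6 and titled deficient 1 highest at 4.63. Hspa12a passed the test without titled control 1 as well, and Hsp90aa1-ps13 passed only without titled deficient 3 (-0.50, adjusted p = 0.0215), not with it (-0.33, adjusted p = 0.182).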

How the results depend on the processing

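The 10 chaperone genes higher in titled control and 11 higher in titled deficient became 8 and 7 with genes at or above percentile 50 (5 pseudogenes), 5 and 18 after quantile normalization (7 protein-coding genes in place of 3), 8 and 14 after cyclic loess (6 protein-coding), 5 and 23 after centring (14 pseudogenes, 9 protein-coding), and 10 and 15 with array weights (5 protein-coding). With 1 lung left out they were 4 to 8 and 7 to 12, the pseudogenes 5 to 10, the protein-coding genes higher in titled deficient 2 to 3, and all genes called 2178 to 3134 against 3390. The 5 and 3 outside genes became 3 and 11 (quantile), 3 and 7 (loess), 3 and 14 (centring), 6 and 10 (weights), and 3 to 5 and 2 to 7 with 1 lung left out. The replicate block gave 1758 genes, 3 and 5 chaperone genes (4 pseudogenes, 1 protein-coding) and 3 and 2 outside genes. No pairing by replicate number showed in the correlations of same-numbered deviations, which were -0.171, 0.044, -0.353 and -0.28. No titled control lung correlated best with its own number. A batch shared by same-numbered lungs was not tested. Chosen after seeing the data, leaving out control 1 and 2 gave 5 and 7 chaperone genes (1 protein-coding in the second) and 6 and 5 outside genes, and leaving out control 3 and 4 gave 7 and 6 (5 pseudogenes, 1 protein-coding). Of the 21 called genes 6 passed in every alternative that tested them (Hspb6, Hspa12a, Hsp90ab1-ps2, Hsp90ab1-ps8, Hsp90ab1-ps13 and Hsp90ab1-ps21), and 11 with any 1 lung left out. The titled control mean of Hsp90ab1-ps2, 5.29, lay just below the level filter. No called gene changed direction. The cause of these shifts was not tested. With 4 lungs a group, smaller differences may have been missed.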
